A study of Mus musculus with 16 samples.

Results

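The genes described here encode the enzymes and transporters that carry glucose to pyruvate, lactate and ribose 5-phosphate, with the kinases that set the entry of pyruvate into mitochondria. A fixed list of 35 gene symbols was looked up in the array annotation, and 30 of them were measured, among 22180 genes in all. Each gene was read from the probe set that carried its symbol alone, and from the one with the highest mean where there were several. Aldoa and Tkt have a probe set that carries several symbols, and Gpi1, Eno1 and G6pdx were not matched to a probe set by symbol, so these 5 genes were not analysed here.

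Bone marrow of C57/B6 males was cultured for 10 days with 20 ng/ml GM-CSF to give dendritic cells, in DMEM with 4.5 g/L glucose, 2 mM glutamine and 10% fetal calf serum, and the cells were then treated for 24 h. The 16 arrays are 4 biological replicates each of mock-treated cells, cells given 0.5 mM PA, cells given IMQ, and cells given IMQ with PA. From knowledge of the study, PA stands for palmitic acid, a saturated fatty acid delivered on bovine serum albumin (molar ratio 6 to 1), and IMQ for imiquimod, which activates the endosomal receptor TLR7. For the amount of IMQ the labels give 3 in both uM and ug/ml. The labels do not say whether mock cells received albumin, nor from which animals or cultures the replicates came. The p-values rest on the spread within groups, pooled over all 16 arrays, which may be technical.

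Glycolysis splits glucose into pyruvate, yielding ATP and NADH without oxygen, and lactate dehydrogenase regenerates NAD+ by turning pyruvate into lactate, which leaves the cell through monocarboxylate transporters. The pentose phosphate pathway branches off after hexokinase, makes NADPH in its oxidative steps and interconverts sugar phosphates in its non-oxidative steps. Dendritic cells are known to raise glycolysis soon after a Toll-like receptor is engaged, through transcription factors such as HIF-1 and through post-translational control of enzymes that mRNA levels do not show.

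Expression values are deposited log2 values from RMA. A change is the difference between group means on that scale, and ± gives its standard error in the limma fit. A gene was called when its Benjamini-Hochberg adjusted p over all 22180 genes was under 0.05. Values of different genes come from different probe sets and are not compared in size. In these bulk samples, fewer cells of a type and less RNA per cell cannot be told apart.

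Some arrays without IMQ stood apart. Il6, a cytokine gene, and 5 other genes of inflammatory activation were raised in mock replicates 1 to 3 and PA replicates 3 and 4, in which Il6 lay between 7.43 and 8.22, against 4.0 to 4.32 in the other arrays without IMQ and 11.86 to 12.27 in the 8 arrays with IMQ. In the 30 genes described here, mock replicate 4 differed from the mean of the other 3 mock arrays by −0.19 (Rpe) to 0.18 (Pgls), with a median absolute difference of 0.05. Gene calls that were lost without these 5 arrays (the arrays of partial activation) are named where the gene or comparison is described. Of 8 measured dendritic cell markers 7 lay above the dim level in every group (4.94, the 95th percentile of sensory receptor genes), among them Flt3, Zbtb46, Itgax and H2-Ab1. All 8 macrophage markers did too, and their mean was 10.06 to 10.13 in mock, 9.96 to 10.03 with PA, 9.74 to 9.80 with IMQ and 9.60 to 9.68 with both. The dendritic cell marker mean was 8.38 to 8.50, 8.31 to 8.36, 8.20 to 8.30 and 8.19 to 8.24 in the same order. The members of these lists went both ways: with IMQ against mock 3 of 8 rose and 5 fell in each list, among them Marco (3.04), Adgre1 (1.55) and Ccr7 (1.02), and Mrc1 (−3.62) and Itgax (−1.71). Of the 8 neutrophil markers 2 rose and 2 fell, and S100a8, which lay above the dim level in every group, rose by 1.52. The part of these markers in the results below was not tested. All 5 measured lymphocyte markers were dim in every group, as were 4 of 8 neutrophil and 4 of 5 mast cell or basophil markers.

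With IMQ alone, 14 of the 30 genes rose (46.7%) and 9 fell (30.0%) against mock, where 17.0% of all genes were called higher and 17.9% lower. Among the 13508 genes that were not dim in every group the shares were 24.9% and 27.3%. The median change of the members was 0.03, close to the 0.01 of all genes, whereas the median absolute change was 0.38 against 0.16. The genes therefore moved in both directions, from −1.16 for Ldhb to 1.51 for Slc16a1, and 3 of them by at least 1. Hexokinase (Hk1 and Hk2 up, Hk3 down), phosphofructokinase (Pfkl and Pfkp up, Pfkm down), its regulatory enzymes (Pfkfb3 up, Pfkfb4 down) and lactate dehydrogenase (Ldha up, Ldhb down) each held genes of both directions. Both lactate carriers and the glucose transporter Slc2a1 rose. Of the 5 pentose phosphate genes measured Pgd, Rpia and Taldo1 fell, Rpe rose and Pgls was not called.

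When PA was added to IMQ, 3 genes rose (10.0%) and 11 fell (36.7%) against IMQ alone, beside 11.6% and 9.44% of all genes. Among genes not dim in every group the shares were 18.2% and 14.1%. The changes ran from −0.57 for Pfkfb3 to 0.66 for Taldo1, with a median of −0.05 against −0.02 over all genes. With PA and no IMQ, 1 gene rose and 0 fell against mock, beside 1.05% and 0.442% of all genes. In that comparison limma gave 6 members higher (of 30) and 0 lower at an unadjusted p under 0.05, a threshold passed by 8.55% of all genes upward and 5.92% downward, and the median was 0.04.

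Cells given both agents were also compared with cells given PA, where 11 of the 30 genes rose (36.7%) and 13 fell (43.3%), beside 16.8% and 18.5% of all genes and 25.0% and 28.4% of those not dim in every group. The median was −0.03 against 0.00, and the changes ran from −1.13 for Ldhb to 1.10 for Slc16a1. Without the 5 arrays of partial activation, the calls of Pfkl, Pfkp, Pfkfb4, Pgk1, Pkm and Pdha1 in this comparison were lost. Their changes were then 0.14, 0.16, −0.31, 0.10, −0.13 and −0.07. The interaction (how far the PA change in IMQ-treated cells exceeds that in cells without IMQ) was called for 8 genes, 2 positive (6.67%) and 6 negative (20.0%), beside 6.58% and 7.01% of all genes and 9.82% and 10.8% of those not dim in every group. The 5 comparisons share arrays, so counts from one are not independent of counts from another.

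**Figure D1:**
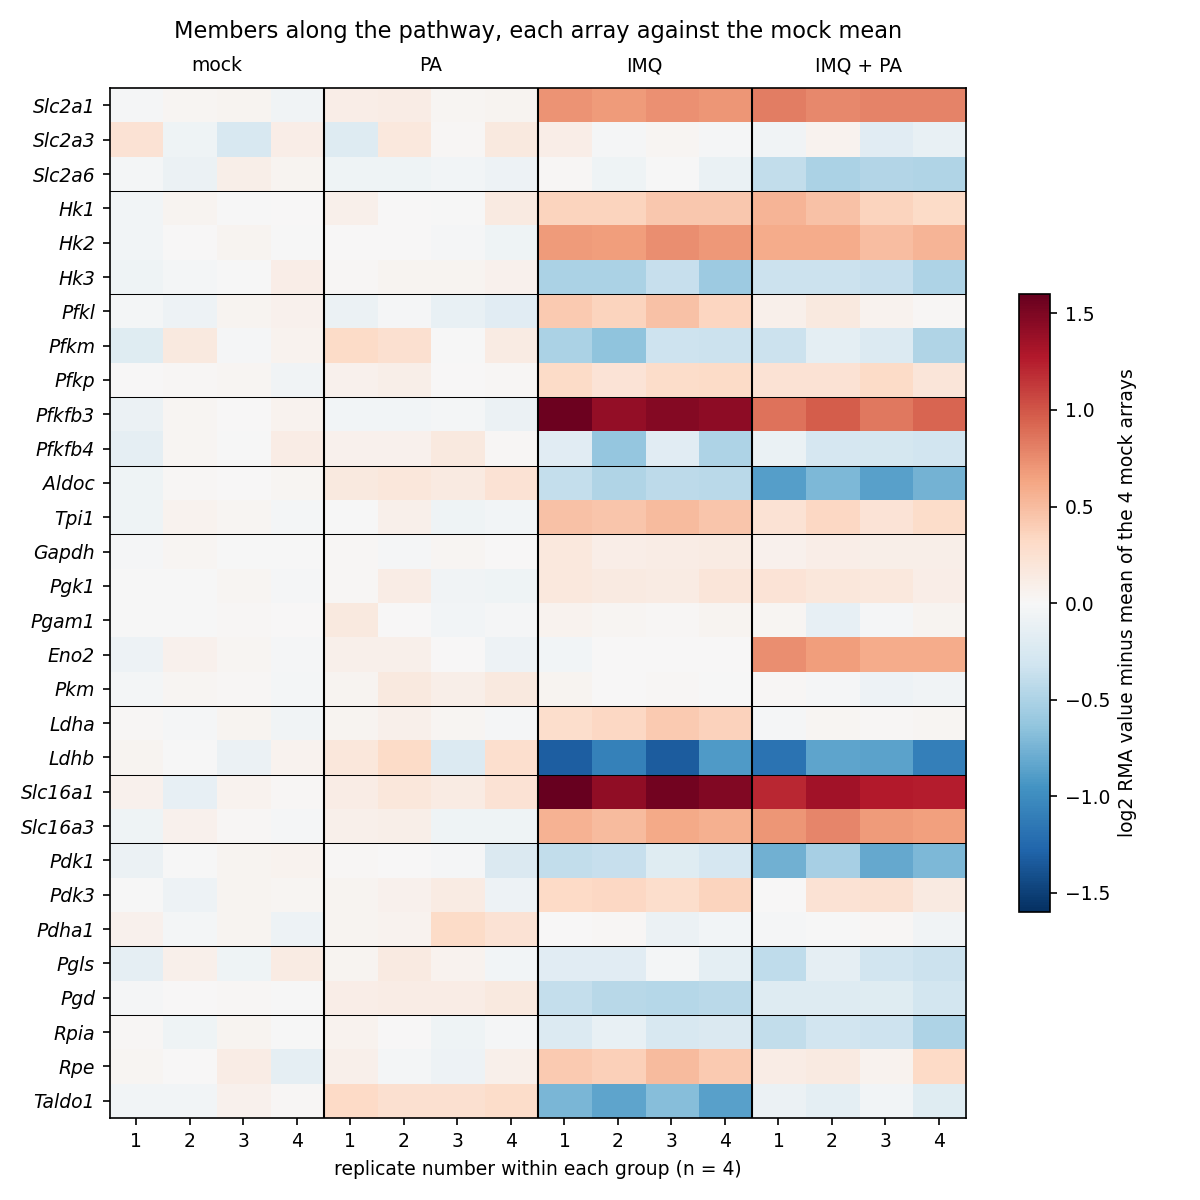
Colour gives the log2 value of each of the 30 measured genes (vertical axis, in pathway order) on each of the 16 arrays (horizontal axis, by group and replicate number) minus the mean of the 4 mock arrays. The strongest colours lie in the IMQ columns at Slc16a1, Pfkfb3 and Ldhb, and the rows of Eno2 and Slc2a6 stand out in the columns given both agents.

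The promoters of 3 genes are shown, Pfkfb3, Slc16a1 and Ldha, which IMQ raised and for which the PA change differed with IMQ, because genes of glycolysis are textbook targets of HIF-1. Each line gives the 250 bases before the outermost RefSeq start, 5′ to 3′ on the gene's strand (build GRCm38.p6), with capitals on every match to ACGTG or GCGTG, the core letters of a hypoxia response element, on either strand. ACGTG is also part of the E-box CACGTG. The windows are chr2:11553930-11554179, minus strand, for Pfkfb3, chr3:104638414-104638663, plus strand, for Slc16a1, and chr7:46845554-46845803, plus strand, for Ldha.
Pfkfb3: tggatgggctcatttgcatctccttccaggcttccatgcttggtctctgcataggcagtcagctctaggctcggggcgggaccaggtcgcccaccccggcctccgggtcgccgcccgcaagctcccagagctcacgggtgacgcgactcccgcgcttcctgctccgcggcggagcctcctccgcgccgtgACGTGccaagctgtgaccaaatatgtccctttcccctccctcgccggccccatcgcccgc
Slc16a1: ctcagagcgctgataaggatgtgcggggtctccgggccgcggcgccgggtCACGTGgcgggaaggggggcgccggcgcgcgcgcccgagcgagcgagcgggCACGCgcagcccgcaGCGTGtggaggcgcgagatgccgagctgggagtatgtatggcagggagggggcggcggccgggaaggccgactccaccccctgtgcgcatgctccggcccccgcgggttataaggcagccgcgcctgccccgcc
Ldha: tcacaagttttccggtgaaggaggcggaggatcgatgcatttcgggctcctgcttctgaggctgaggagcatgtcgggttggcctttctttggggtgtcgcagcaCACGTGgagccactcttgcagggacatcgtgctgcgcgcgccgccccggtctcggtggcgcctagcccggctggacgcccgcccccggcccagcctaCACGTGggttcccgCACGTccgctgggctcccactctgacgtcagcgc
Of the measured genes 29 of 30 had an entry in the RefSeq promoter table, with 39 windows. Some genes have several windows, and some of those of Pfkm overlap, so windows are not independent units. The background is every listed window, whether or not its gene was measured. One or both core motifs were in 31 of the 39 windows (79.5%), against 38.6% of all 32851 windows of the same length. ACGTG alone was in 35.9% against 16.6%, and GCGTG alone was in 59% against 28.2%, where "alone" means counted without regard to the other motif. The core of the antioxidant response element, TGACNNNGC, was in 5.13% of the members' windows and in 10.2% of all windows. The members' windows were richer in G and C, with a median of 60.4% against 52.4%. These matches describe letters and not binding, which was not measured.

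Glucose import was read at 3 transporters. Slc2a1, the widely expressed glucose transporter GLUT1, was 10.83, 10.89, 10.90 and 10.79 in mock, 10.96, 10.98, 10.89 and 10.90 with PA, 11.57, 11.54, 11.58 and 11.56 with IMQ, and 11.67, 11.62, 11.65 and 11.65 with both. All 8 arrays with IMQ lay above all 8 without it. The change was 0.71 ± 0.04 with IMQ against mock (adjusted p = 6.27e-10) and 0.72 ± 0.04 with both against PA (adjusted p = 5.06e-10). Another Slc2a1 probe set, also above the dim level, read 5.75 in mock and 5.93 with IMQ, and averaged over both probe sets the IMQ change was 0.44 and still called. The difference between both agents and IMQ was 0.09 and was not called.

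Slc2a6, the lysosomal transporter GLUT6, followed another course. Its values were 8.97, 8.92, 9.10 and 9.05 in mock, 8.94, 8.94, 8.97 and 8.93 with PA, 9.03, 8.94, 9.01 and 8.90 with IMQ, and 8.62, 8.50, 8.54 and 8.53 with both. The 4 arrays given both agents lay below the other 12, which overlapped. The gene fell by 0.42 ± 0.05 when PA was added to IMQ (adjusted p = 1.02e-05), and was not called with IMQ or with PA alone. Its interaction was −0.36 ± 0.07 (adjusted p = 0.00249). Without the 5 arrays of partial activation the interaction was −0.31 with an adjusted p of 0.13. Slc2a3, the transporter GLUT3, lay between 4.29 and 4.77, was dim in all 4 groups, and gives no fold.

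Hexokinases phosphorylate glucose and so hold it in the cell. Hk2, the inducible isozyme that docks on mitochondria, was 8.37, 8.42, 8.46 and 8.41 in mock, 8.42, 8.42, 8.40 and 8.35 with PA, 9.10, 9.08, 9.15 and 9.10 with IMQ, and 9.01, 9.0, 8.90 and 8.95 with both. Hk3, an isozyme of myeloid cells, ran the other way, at 8.21, 8.24, 8.26 and 8.38 in mock, 8.29, 8.32, 8.32 and 8.35 with PA, 7.76, 7.77, 7.91 and 7.69 with IMQ, and 7.93, 7.93, 7.90 and 7.78 with both. For neither gene did the arrays with IMQ overlap those without.

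With IMQ against mock, Hk2 rose by 0.70 ± 0.04 (adjusted p = 9.08e-10) and Hk3 fell by 0.49 ± 0.06 (adjusted p = 2.31e-06). Hk1, the constitutive isozyme, rose by 0.39, from 7.57 to 7.66 in mock to 7.98 to 8.05 with IMQ. PA added to IMQ lowered Hk2 by 0.14, and neither Hk1 nor Hk3 was called. The Hk2 call was lost in 5 of 16 alternatives, which were equal array medians (adjusted p = 0.0814), only the groups compared (0.0823), without IMQ replicate 3 (0.0526), without replicate 3 of both agents (0.0695) and without the arrays of partial activation (0.0564). With both agents against PA, Hk2 rose by 0.57 ± 0.04 (adjusted p = 1.02e-08), Hk1 rose and Hk3 fell.

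Phosphofructokinase commits sugar phosphate to glycolysis. Of its 3 subunit genes, the liver form Pfkl rose with IMQ by 0.40, the platelet form Pfkp rose by 0.28, and the muscle form Pfkm fell by 0.46 ± 0.10 (adjusted p = 0.00144). Pfkl was 8.88, 8.83, 8.95 and 8.97 in mock, 8.82, 8.89, 8.79 and 8.73 with PA, 9.33, 9.27, 9.37 and 9.25 with IMQ, and 8.99, 9.06, 8.97 and 8.93 with both. The IMQ arrays were the highest 4 of 16, and those given both agents overlapped mock. PA added to IMQ lowered Pfkl by 0.32 ± 0.05 (adjusted p = 0.000232). Pfkm was 5.44 to 5.79 in mock, 5.63 to 5.94 with PA, 5.0 to 5.30 with IMQ and 5.15 to 5.49 with both. Against PA alone, both agents lowered Pfkm by 0.47 ± 0.10 (adjusted p = 0.00105).

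Pfkfb3 and Pfkfb4 encode enzymes that make and remove fructose 2,6-bisphosphate, the strongest known activator of phosphofructokinase, and Pfkfb3 is the form with the greater kinase activity. Pfkfb3 was 7.91, 8.03, 8.0 and 8.05 in mock, 7.95, 7.95, 7.97 and 7.90 with PA, 9.57, 9.41, 9.47 and 9.43 with IMQ, and 8.87, 8.97, 8.84 and 8.93 with both. The groups formed 3 separate levels, with mock and PA overlapping at the bottom, both agents in between and IMQ at the top.

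IMQ raised Pfkfb3 by 1.47 ± 0.05 against mock, or 2.77-fold (adjusted p = 1.41e-12), and PA added to IMQ lowered it by 0.57 ± 0.05 (adjusted p = 4.46e-07). Against PA alone, both agents gave 0.96 ± 0.05 (adjusted p = 1.87e-10). The PA change without IMQ was −0.06 and was not called, and the interaction was −0.51 ± 0.07 (adjusted p = 0.000115). Pfkfb4 was 7.30, 7.48, 7.44 and 7.57 in mock, 7.51, 7.52, 7.60 and 7.46 with PA, 7.26, 6.83, 7.26 and 6.95 with IMQ, and 7.33, 7.17, 7.17 and 7.14 with both. It fell by 0.37 with IMQ, with all 4 IMQ arrays below all 4 mock arrays.

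Aldolase cleaves fructose 1,6-bisphosphate into triose phosphates, and Aldoc, the isoform best known from brain, was the member gene measured for it. Aldoc was 9.91, 10.00, 9.99 and 10.01 in mock, 10.14, 10.16, 10.13 and 10.21 with PA, 9.60, 9.50, 9.56 and 9.55 with IMQ, and 9.10, 9.25, 9.11 and 9.22 with both. No array of one group overlapped another group, and the order from the top was PA, mock, IMQ and both agents.

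Aldoc fell by 0.43 with IMQ, and fell by a further 0.38 ± 0.05 when PA was added (adjusted p = 1.88e-05). With both agents against PA it fell by 0.99 ± 0.05 (adjusted p = 6.58e-11). Without IMQ the PA change was 0.18 ± 0.05 and missed the threshold (adjusted p = 0.0779). The interaction was −0.56 ± 0.07 (adjusted p = 2.58e-05), the most negative among the members. Tpi1, the triose phosphate isomerase, rose with IMQ by 0.46 ± 0.05 (adjusted p = 6.34e-07), from 10.94 to 11.06 in mock to 11.44 to 11.51, and was 11.23 to 11.34 with both, a fall of 0.19 against IMQ.

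By the probe sets used, the enzymes from glyceraldehyde phosphate to pyruvate differed little between groups, apart from an enolase. Gapdh, which makes the NADH of glycolysis and often serves as a reference gene, was 12.64 to 12.69 in mock, 12.64 to 12.68 with PA, 12.76 to 12.82 with IMQ and 12.73 to 12.77 with both. It rose with IMQ by 0.13, and Pgk1, which makes ATP in the next step, rose by 0.16. Both calls were lost without the arrays of partial activation (adjusted p = 0.204 and 0.146), and that of Gapdh also with only the groups compared. Other Gapdh probe sets also read higher with IMQ than in mock, at 12.69 against 12.56 and 9.13 against 8.74. With both agents they read 12.64 and 8.77. The mean of all Gapdh probe sets rose by 0.22 with IMQ. Gapdh has many processed pseudogenes, and cross-hybridisation was not tested.

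Pgam1, the phosphoglycerate mutase, lay between 10.22 and 10.49 on all arrays and was called in none of the 5 comparisons run with limma. Pkm, the pyruvate kinase of most tissues, lay between 11.95 and 12.19 and was called lower with both agents against PA (−0.15). That Pkm call was also lost without the arrays of partial activation. Gene-level probe sets do not separate the M1 and M2 splice forms of Pkm.

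Eno2, the enolase isoform named for neurons, was 6.12, 6.28, 6.24 and 6.18 in mock, 6.29, 6.28, 6.22 and 6.13 with PA, 6.16, 6.21, 6.22 and 6.21 with IMQ, and 6.95, 6.87, 6.80 and 6.80 with both. The first 3 groups overlapped and all 4 arrays given both agents lay above all others. The change when PA was added to IMQ was 0.65 ± 0.05, or 1.57-fold (adjusted p = 1.25e-07), and with both agents against PA it was 0.63 ± 0.05 (adjusted p = 5.17e-08). Neither agent alone gave a call, with −0.0037 for IMQ and 0.02 for PA. The interaction of 0.63 ± 0.07 was the largest of the members (adjusted p = 2.04e-05).

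Lactate dehydrogenase is a tetramer of subunits from Ldha, which favours lactate formation, and Ldhb, which favours its oxidation. Ldha was 7.93, 7.90, 7.95 and 7.86 in mock, 7.95, 7.99, 7.95 and 7.89 with PA, 8.20, 8.24, 8.33 and 8.28 with IMQ, and 7.89, 7.94, 7.93 and 7.94 with both. The IMQ arrays stood alone above the other 12. Ldhb was 6.66, 6.61, 6.52 and 6.67 in mock, 6.79, 6.93, 6.40 and 6.89 with PA, 5.29, 5.54, 5.28 and 5.71 with IMQ, and 5.44, 5.77, 5.75 and 5.52 with both. Here the 8 arrays with IMQ lay below the 8 without.

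Ldha rose with IMQ by 0.35 and fell by 0.34 ± 0.04 when PA was added (adjusted p = 2.43e-05). With both agents against PA it changed by −0.02 ± 0.04 (adjusted p = 0.762), with a 95% interval of −0.11 to 0.07. Its interaction was −0.37 ± 0.06 (adjusted p = 0.000523). Ldhb fell by 1.16 ± 0.12 with IMQ, which is 2.24-fold lower (adjusted p = 8.29e-07), and by 1.13 ± 0.12 with both agents against PA (adjusted p = 1.03e-06). PA was not called for Ldhb with or without IMQ, with 0.17 and 0.14, and Ldhb in PA had the widest spread of any member in any group (SD 0.241, n = 4).

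Slc16a1 and Slc16a3 encode MCT1 and MCT4, proton-coupled carriers of lactate and pyruvate, of which MCT4 is known as the exporter of highly glycolytic cells. Slc16a1 was 7.22, 7.02, 7.21 and 7.18 in mock, 7.27, 7.34, 7.29 and 7.40 with PA, 8.76, 8.58, 8.71 and 8.64 with IMQ, and 8.36, 8.51, 8.43 and 8.41 with both. No groups overlapped, and the order from the top was IMQ, both agents, PA and mock. Slc16a3 was 8.96, 9.09, 9.05 and 9.01 in mock, 9.10, 9.12, 8.95 and 8.97 with PA, 9.59, 9.54, 9.64 and 9.60 with IMQ, and 9.73, 9.81, 9.72 and 9.69 with both. All 4 arrays given both agents were above the 4 given IMQ.

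Slc16a1 had the largest rise among the members with IMQ, 1.51 ± 0.06 or 2.85-fold (adjusted p = 4.35e-12), and fell by 0.24 ± 0.06 when PA was added (adjusted p = 0.00517). Against PA alone it rose with both agents by 1.10 ± 0.06 (adjusted p = 1.7e-10). Its interaction was −0.41 ± 0.08 (adjusted p = 0.00237), and without the arrays of partial activation −0.37 (adjusted p = 0.0996). Slc16a3 rose with IMQ by 0.56 ± 0.05 (adjusted p = 2.08e-07) and with both agents against PA by 0.70 ± 0.05 (adjusted p = 1.31e-08). The difference of 0.15 when PA was added to IMQ missed the threshold for Slc16a3 (adjusted p = 0.0587).

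**Figure D2:**
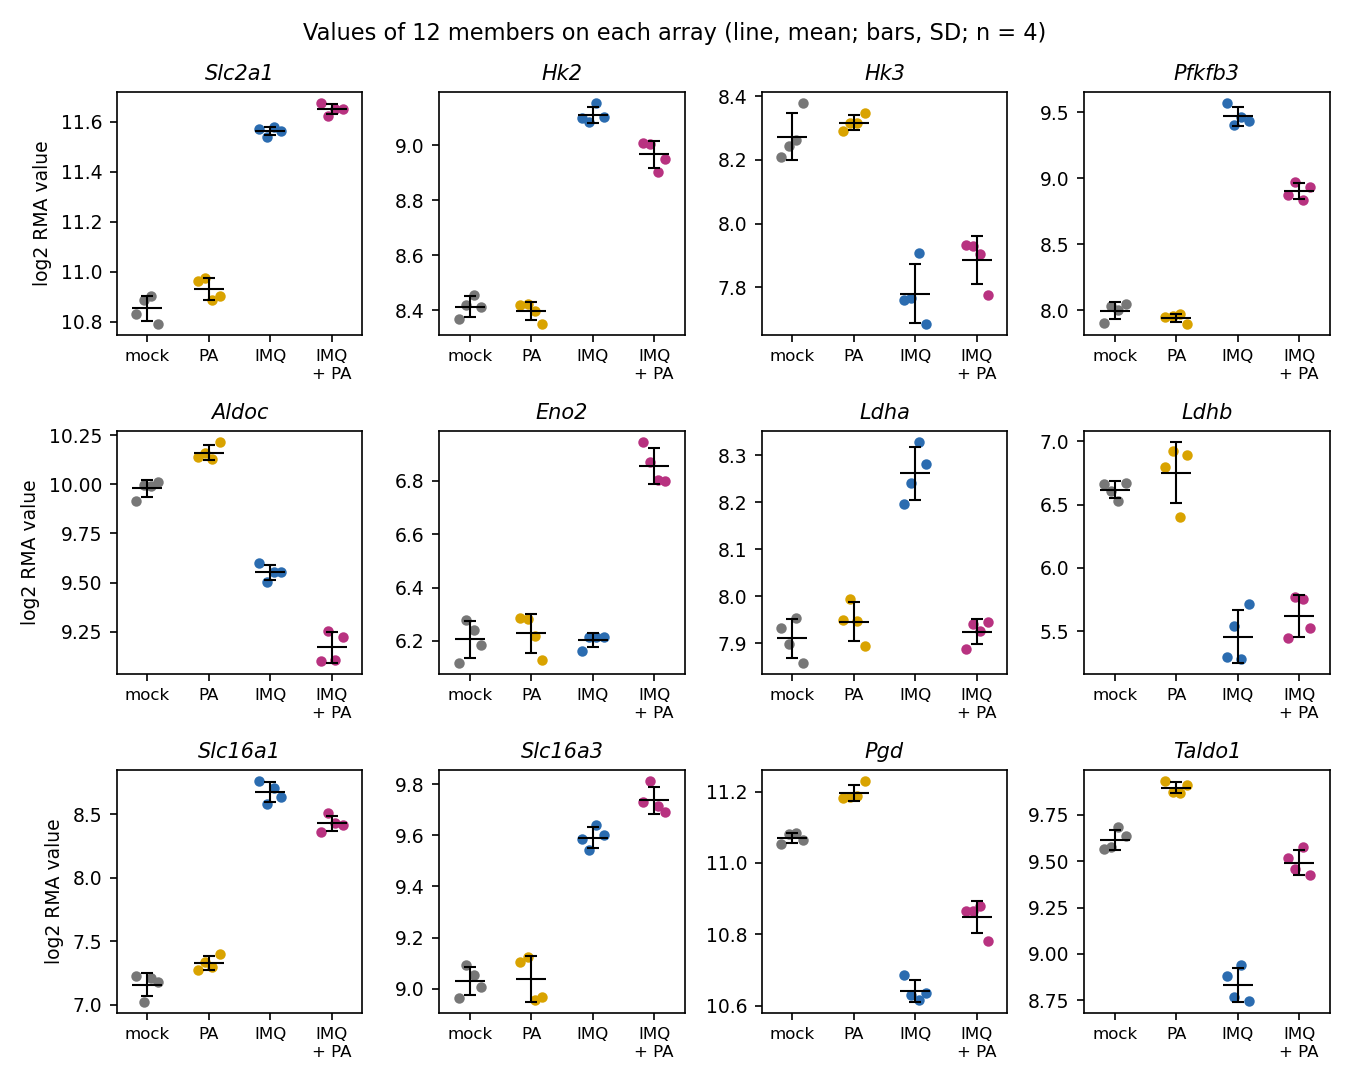
Points are the log2 values of 12 genes on single arrays in the 4 groups, with the group mean and SD (n = 4). Pfkfb3, Slc16a1 and Ldha step up with IMQ and are lower with both agents than with IMQ, Eno2 steps up with both agents, and Taldo1 is lowest with IMQ.

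Genes that serve the same step did not always move together. This is shown for 6 pairs chosen after their values were seen. Each value is the difference of the pair's log2 values on an array minus its mean in mock. The gene with the higher IMQ change is written first, so every mean IMQ difference is positive by that order. Hk1 with Hk2 and Pfkl with Pfkp, which rose together, are not among the pairs, and Slc16a1 and Slc16a3 both rose. With IMQ the difference was 1.19 for Hk2 minus Hk3 (1.11 to 1.28 over the 4 arrays), 0.85 for Pfkl minus Pfkm, and 1.84 for Pfkfb3 minus Pfkfb4 (1.65 to 2.02). It was 1.51 for Ldha minus Ldhb (1.28 to 1.75), 0.95 for Slc16a1 minus Slc16a3 and 0.63 for Pdk3 minus Pdk1. With both agents it was 0.94, 0.38, 1.15, 1.01, 0.56 and 0.86 in the same order of pairs. In 5 of the 6 pairs the difference was smaller with both agents than with IMQ, the exception being Pdk3 minus Pdk1. This count rests on pairs chosen with the values known.

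**Figure D3:**
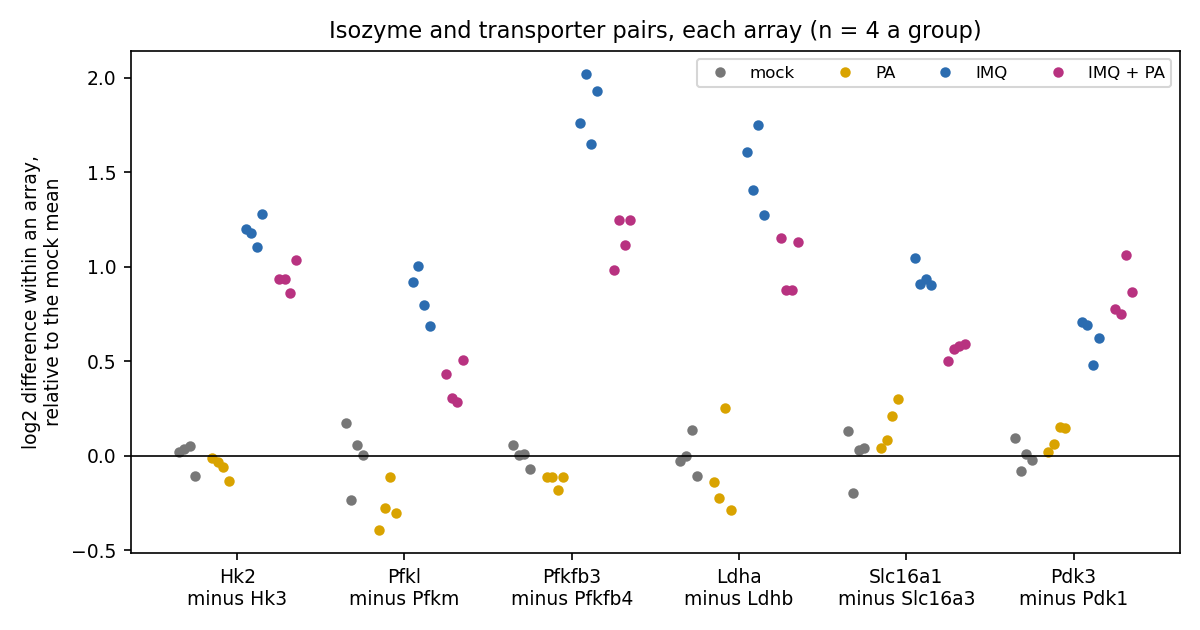
Each point is the log2 difference between both genes of a pair on 1 array, relative to the mean of that difference in the 4 mock arrays, for 6 pairs in 4 groups. With IMQ all pairs lie above their mock points, from a mean of 0.63 for Pdk3 minus Pdk1 to 1.84 for Pfkfb3 minus Pfkfb4. The pairs were chosen after their values were seen, with the gene of the higher IMQ change first, so the mean IMQ difference is positive by that order.

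Pyruvate dehydrogenase admits pyruvate to the citrate cycle, and its kinases switch it off. Pdk1 was 7.76, 7.85, 7.89 and 7.91 in mock, 7.87, 7.86, 7.83 and 7.62 with PA, 7.46, 7.49, 7.66 and 7.58 with IMQ, and 7.08, 7.32, 7.03 and 7.13 with both. The 4 arrays given both agents were the lowest. Pdk1 fell by 0.31 with IMQ, by 0.41 ± 0.07 when PA was added (adjusted p = 0.000717) and by 0.66 ± 0.07 with both against PA (adjusted p = 1.91e-06). Its interaction of −0.35 ± 0.10 lay near the threshold (adjusted p = 0.0359), and the call was lost in 13 of 23 alternatives. Among these were the replicate block (adjusted p = 0.0544), the fit without the arrays of partial activation (−0.36, adjusted p = 0.22), and 10 fits that each left out 1 array, namely mock replicate 1 or 2, PA replicate 1, 2 or 3, IMQ replicate 3 or 4, or replicate 1, 3 or 4 of both agents (−0.35 to −0.31). Another Pdk1 probe set was dim in all groups, and averaged over both the IMQ change was −0.15 and not called (adjusted p = 0.24).

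Pdk3 rose with IMQ by 0.32, from 7.53 to 7.66 in mock to 7.90 to 7.96, and was 7.61 to 7.84 with both agents, a difference of −0.17 from IMQ that missed the threshold (adjusted p = 0.06). Without the arrays of partial activation the Pdk3 change with IMQ also missed it (adjusted p = 0.0531). Pdha1, the catalytic E1 alpha subunit, was called in 1 comparison, lower with both agents against PA by 0.18, and that call was lost in 7 of 16 alternatives. These were the fits without the arrays of partial activation, with only the groups compared, without PA replicate 3 or 4, and without replicate 1, 2 or 4 of both agents.

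In the oxidative branch of the pentose phosphate pathway, Pgd encodes the dehydrogenase of the step that releases CO2 and NADPH. It was 11.05, 11.08, 11.08 and 11.06 in mock, 11.18, 11.18, 11.19 and 11.23 with PA, 10.69, 10.63, 10.62 and 10.64 with IMQ, and 10.87, 10.87, 10.88 and 10.78 with both. No groups overlapped. Pgd fell by 0.43 with IMQ and rose by 0.21 when PA was added, and without IMQ the PA change of 0.13 missed the threshold (adjusted p = 0.144). Pgls, the lactonase, lay between 7.26 and 7.81 and fell by 0.35 with both agents against PA.

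In the non-oxidative branch, Taldo1 encodes transaldolase, which moves a dihydroxyacetone unit between sugar phosphates. Taldo1 was 9.57, 9.57, 9.68 and 9.64 in mock, 9.93, 9.87, 9.87 and 9.91 with PA, 8.88, 8.77, 8.94 and 8.75 with IMQ, and 9.52, 9.46, 9.58 and 9.42 with both. All 4 PA arrays were above mock, the IMQ arrays were the lowest 4, and mock and both agents overlapped in 1 array.

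Taldo1 fell by 0.78 ± 0.05 with IMQ (adjusted p = 5.11e-09) and rose by 0.66 ± 0.05, or 1.58-fold, when PA was added (adjusted p = 1.51e-07). It was the member called with PA alone, at 0.28 ± 0.05 or 1.22-fold (adjusted p = 0.0134), and its interaction was 0.38 ± 0.08 (adjusted p = 0.00269). The calls of both smaller results depended on the mock and PA arrays, while the sizes of the changes moved little. Without the arrays of partial activation the PA change was 0.27 (adjusted p = 0.603) and the interaction 0.39 (adjusted p = 0.108). The PA call was also lost with the activation covariate, without mock replicate 1 (adjusted p = 0.0513) and without mock replicate 2 (adjusted p = 0.0546).

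Rpia and Rpe encode the isomerase and epimerase of ribulose 5-phosphate, which lead to ribose and xylulose 5-phosphate. Rpe was 8.43, 8.41, 8.52 and 8.26 in mock, 8.48, 8.38, 8.32 and 8.48 with PA, 8.82, 8.79, 8.91 and 8.82 with IMQ, and 8.52, 8.55, 8.46 and 8.72 with both. The IMQ arrays were above all others. Rpe rose with IMQ by 0.43 and fell by 0.27 ± 0.07 when PA was added (adjusted p = 0.0073). Rpia was 6.94, 6.85, 6.96 and 6.91 in mock, 6.97, 6.92, 6.84 and 6.89 with PA, 6.70, 6.80, 6.66 and 6.68 with IMQ, and 6.52, 6.60, 6.59 and 6.42 with both. It fell by 0.20 with IMQ and by 0.18 when PA was added, and neither call held without the arrays of partial activation (adjusted p = 0.153 and 0.0565). The call for PA added to IMQ was lost in 6 of 16 alternatives, the others being equal array medians (adjusted p = 0.0607), only the groups compared (0.0779), without IMQ replicate 2 (0.0768), and without replicate 1 (0.0512) or 4 (0.0721) of both agents.

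Over all 30 genes the PA change ran from −0.10 (Pfkl) to 0.28 (Taldo1) without IMQ and from −0.57 (Pfkfb3) to 0.66 (Taldo1) with it. Besides the 8 genes called for the interaction (Slc2a6, Pfkfb3, Aldoc, Eno2, Ldha, Slc16a1, Pdk1 and Taldo1), the difference between the PA changes was not called for 22 genes. Without the 5 arrays of partial activation, 4 interactions were called, those of Pfkfb3, Aldoc, Eno2 and Ldha. Fewer interactions were then called over all genes too. The replicates that showed partial activation were in both mock and PA. Whether this bears on the lost calls beyond the loss of arrays was not tested.

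**Figure D4:**
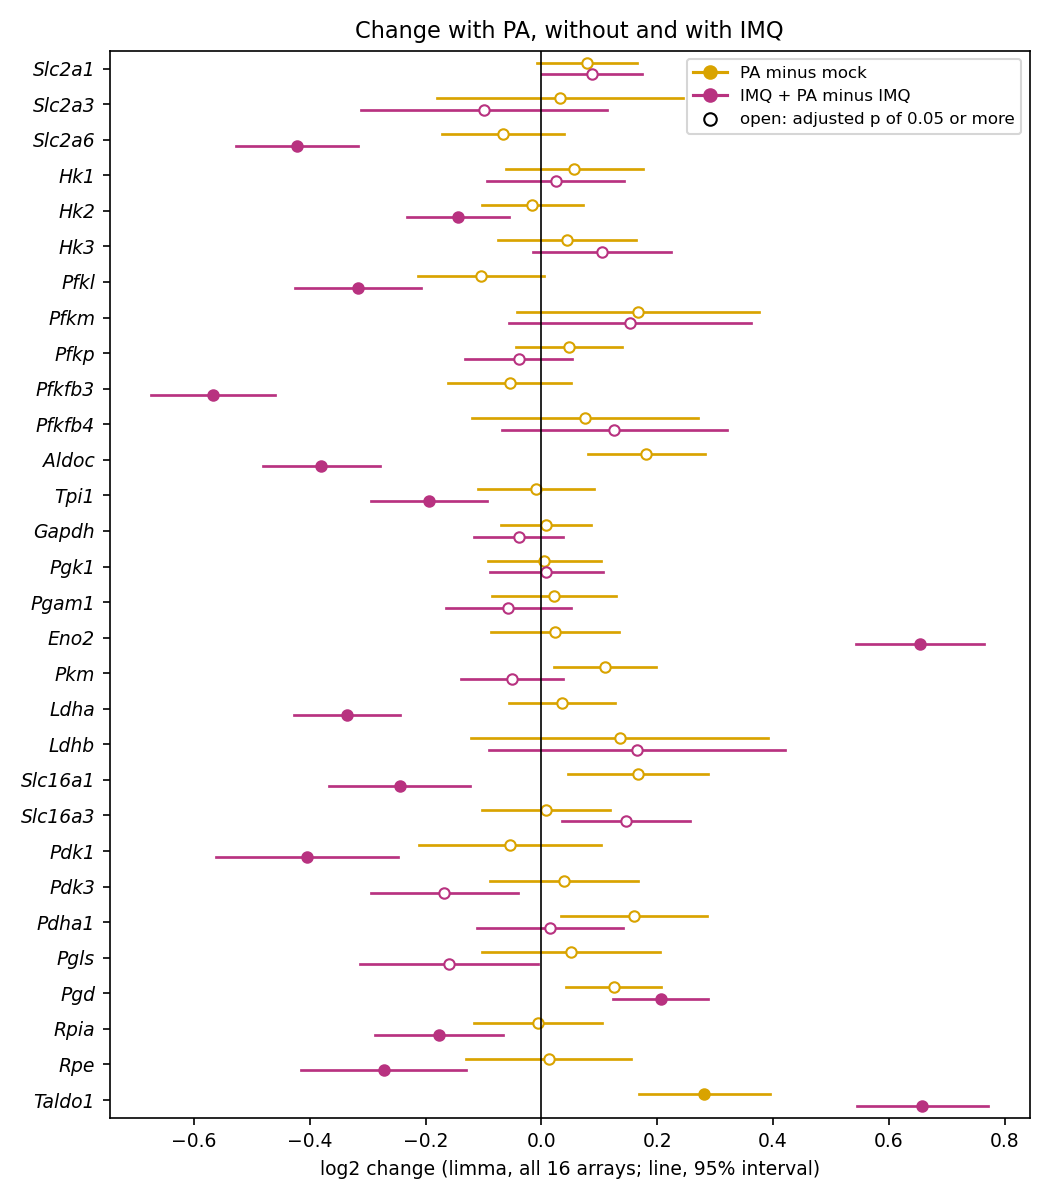
For each of the 30 genes in pathway order, points are the log2 change with PA against mock and with IMQ and PA against IMQ, with lines for the 95% interval of the limma fit over 16 arrays, and filled points for adjusted p under 0.05. Without IMQ 1 point is filled (Taldo1), and with IMQ 14 are, from −0.57 for Pfkfb3 to 0.66 for Taldo1.

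Neighbouring genes of the pathway, such as other isozymes, glycogen and pyruvate enzymes, were taken from a second list, of which 51 of 58 were measured. With IMQ 9 rose (17.6%, beside 17.0% of all genes) and 15 fell (29.4%, beside 17.9%). Among all genes not dim in every group 24.9% rose and 27.3% fell. Shares of this list count all 51 genes, also those dim in every group, among them Pgk2, Ldhc and Slc2a2. They are therefore not on the same basis as the shares among genes not dim in every group. The largest rises were Pck2, the mitochondrial enzyme that makes phosphoenolpyruvate, by 1.06 ± 0.06 (adjusted p = 1.04e-09), glycogen synthase Gys1 by 0.88 and the glycogen branching enzyme Gbe1 by 0.84. The largest falls were Pdp1, a phosphatase that switches pyruvate dehydrogenase on, at −1.26 ± 0.07 (adjusted p = 5.53e-10), the kinase Pdk2 at −1.08 and Emb, an accessory protein of monocarboxylate carriers, at −0.79.

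When PA was added to IMQ, 5 of these 51 rose (9.8%, beside 11.6% of all genes) and 8 fell (15.7%, beside 9.44%). Among all genes not dim in every group, a basis that leaves out dim genes, 18.2% rose and 14.1% fell. The called genes of the list were led by Pdhx at 0.45, Pdp1 at 0.43 and Eno3, another enolase, at 0.35, and by Pck2 at −0.72, Pgm2l1 at −0.71 and Prps2 at −0.52. PA alone raised 1 of them by limma (1.96%, beside 1.05% of all genes), G6pc3 by 0.24 ± 0.05 (adjusted p = 0.0201). It lowered 0 of them, beside 0.442% of all genes. At an unadjusted p under 0.05 limma gave 6 of 51 higher and 0 lower, beside 8.55% and 5.92% of all genes. With both agents against PA 9 rose (17.6%, beside 16.8%) and 16 fell (31.4%, beside 18.5%). Among all genes not dim in every group 25.0% rose and 28.4% fell, again a basis without dim genes. The rises of the list were led by Gbe1 at 0.72, Gys1 at 0.58 and Dld at 0.39. The falls were led by Emb at −1.16, Pgm2l1 at −1.11 and Pdk2 at −1.0. The interaction was called positive for 3 (5.88%, beside 6.58%), which were Pdp1 at 0.58, Rbks at 0.24 and Mpc1 at 0.22. It was called negative for 8 (15.7%, beside 7.01%), led by Pck2 at −0.87, Pgm2l1 at −0.79 and Prps2 at −0.55. Among all genes not dim in every group 9.82% were positive and 10.8% negative.

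All 16 listed regulators of these genes were measured. Hif1a, the oxygen-regulated subunit of HIF-1, was 9.40, 9.32, 9.37 and 9.33 in mock, 9.46, 9.52, 9.63 and 9.49 with PA, 10.51, 10.60, 10.59 and 10.61 with IMQ, and 10.54, 10.52, 10.49 and 10.62 with both. It rose by 1.22 ± 0.05 with IMQ (adjusted p = 6.74e-12), and PA added to IMQ gave −0.04, which was not called. Myc, a transcription factor that drives glycolysis in dividing cells, was 7.69, 7.64, 7.72 and 7.64 in mock, 7.87, 7.88, 8.0 and 7.89 with PA, 5.91, 5.64, 5.98 and 5.82 with IMQ, and 6.67, 6.76, 6.81 and 6.75 with both. It fell by 1.83 ± 0.06 with IMQ (adjusted p = 1.88e-12) and rose by 0.91 when PA was added (adjusted p = 3.29e-08).

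Among the 16 regulators, 5 rose with IMQ (31.2%, beside 17.0% of all genes and 24.9% of those not dim in every group) and 3 fell (18.8%, beside 17.9% and 27.3%). The other leading ones were the prolyl hydroxylase Egln3 (1.00), the kinase subunit Prkaa1 (0.47), Epas1, which encodes HIF-2 alpha (−1.71), and Txnip, a brake on glucose uptake (−0.75). When PA was added to IMQ 3 rose (18.8%, beside 11.6% and 18.2%) and 4 fell (25%, beside 9.44% and 14.1%), with Arrdc4 at 0.42 and Mtor at 0.16, and with Egln1 at −0.54, Egln3 at −0.30 and Txnip at −0.23. With PA alone limma called 0 of them, beside 1.05% of all genes higher and 0.442% lower. At an unadjusted p under 0.05 it gave 6 of 16 higher and 0 lower, beside 8.55% and 5.92% of all genes. Against PA alone, both agents gave 5 higher and 5 lower (31.2% each, beside 16.8% and 18.5% of all genes, and 25.0% and 28.4% of those not dim in every group). The interaction was called for 2 in each direction, which were Myc (0.67), Arrdc4 (0.32), Egln1 (−0.46) and Txnip (−0.33). That is 12.5% each, beside 6.58% and 7.01% of all genes, and 9.82% and 10.8% of those not dim in every group.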

How the data were processed

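RNA of 16 samples (200 ng each) was biotin-labelled and hybridised to 1-colour Affymetrix whole-transcript mouse arrays (per the labels' protocols). Values were deposited as log2 intensities for 41345 probe sets (0.628 to 13.5), and RMA and affy are named without versions, per the submitters' processing notes. RMA corrects background, equalises the arrays' distributions and summarises probes, so a shift common to most genes would be removed. The genome build is not given in the sources used here. Arrays have no read depth, and their number limits the precision.

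Probe sets were named through the platform annotation. Probe sets with 1 symbol (23521) were kept, and those with several (1814) or none listed (16010) were left out. The highest-mean probe set stood for a gene, which gave 22180 genes. A gene with every group mean under 4.94, which is the 95th percentile over 1428 sensory receptor genes, was taken as dim (8672 genes). All 30 measured symbols were matched to RefSeq by gene number.

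Group means were fitted to all arrays with limma 3.58.1 (R 4.3.3, eBayes, 12 residual and 2.96 prior degrees of freedom), with two-sided tests, Benjamini-Hochberg adjustment over all genes and a threshold of 0.05. The steps were tested on simulated data. There, 77.6% of PA changes of 0.5 against mock and 46.3% of interactions of 0.5 were recovered. Smaller changes were not simulated, so how often they would be called is not known. The members and lists were chosen with earlier results of these data known. Every measured member is named. Full statistics are for at most 10 called members in a comparison by size of change, and for the other lists up to 3 called genes in each direction are named.

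Replicate numbers were not taken as pairs, because the labels do not say that they mark a shared culture and not every same-numbered pair deviated together. Correlations over 0.1 were still more frequent between same-numbered arrays (4 of 24 pairs) than between others (2 of 72). What same-numbered arrays may share was not tested, and a replicate block was run as an alternative. The alternatives were repeated quantile normalization, equal array medians, dim genes left out, a variance trend with robust moderation, only the groups compared, a replicate block, the mean of all probe sets, each replicate left out, the 5 arrays without IMQ with Il6 over 6 left out, and for PA alone an activation covariate.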

Additional observations from a re-analysis of the deposited data

Results flagged for a closer look

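The PA change with IMQ differed from the PA change without it, by the interaction term of the limma fit, for 8 genes. The interaction was 0.63 for Eno2 and 0.38 for Taldo1, and it was −0.56 for Aldoc, −0.51 for Pfkfb3, −0.41 for Slc16a1, −0.37 for Ldha, −0.36 for Slc2a6 and −0.35 for Pdk1. In Eno2 and Slc2a6 neither agent alone was called. In Aldoc the PA change was 0.18 without IMQ and −0.38 with it.

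A single array lay apart from the other 3 of its group in 6 of 120 sets of 4 values checked, judged by the gap to its neighbour over the range, and chance gives about 1 in 20. These were Slc2a6 in PA replicate 3 (8.97), Pfkp in IMQ replicate 2 (10.19), Eno2 in IMQ replicate 1 (6.16), Pdk1 in PA replicate 4 (7.62), Pgd in PA replicate 4 (11.23) and Pgd in replicate 4 of IMQ with PA (10.78). The PA replicates 3 and 4 are among the arrays of partial activation.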

How the results depend on the processing

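With PA alone the count of called members was 1 as reported, 2 with dim genes left out, 4 with a variance trend and robust moderation, 0 without the arrays of partial activation and 0 with the activation covariate, and it ranged from 0 to 1 when a replicate was left out, being 0 without mock replicate 1 and without mock replicate 2. For the interaction it was 8 as reported and 4 without the arrays of partial activation, and the other settings gave 7 to 12. The alternatives gave 19 to 23 for IMQ against mock (23 as reported), 12 to 17 for both agents against IMQ (14) and 18 to 26 for both agents against PA (24). With the replicate number as a block the counts were 1, 23, 14, 24 and 7, in the order PA, IMQ, both against IMQ, both against PA and interaction, and the call lost was the Pdk1 interaction. Deviations from group means correlated at −0.12 to 0.17 between same-numbered arrays (4 of 24 pairs over 0.1) and at −0.18 to 0.10 between others (2 of 72 over 0.1), and 4 of 16 arrays correlated best with their own number in every other group. Calls kept under every alternative run were 0 of 1, 18 of 23, 12 of 14, 18 of 24 and 4 of 8 in that order, and 0 called members changed sign. Over all genes PA alone gave 331 calls as reported, 532 with dim genes left out, 737 with the variance trend and 99 with the activation covariate. The interaction gave 3015 calls over all genes as reported and 2600 to 3547 in the settings that kept the arrays of partial activation. Without these 5 arrays calls over all genes also became fewer in every comparison. The loss of calls without the 5 arrays comes with fewer arrays in mock and PA, and its cause was not tested. That setting leaves 1 mock array, assumed to vary like the other groups. Dim signal limits Slc2a3. Array means do not show protein, enzyme activity or glucose flux.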
